A study of Mus musculus with 4 samples.

Results

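The genes described here are 9 brakes on cell division that were matched by symbol in the gene lists of all 4 libraries, out of 27998 listed genes. They are 2 inhibitors of the CIP/KIP family (Cdkn1a and Cdkn1b), 2 of the INK4 family (Cdkn2c and Cdkn2d), the antiproliferative genes Btg1 and Btg2, and the growth arrest genes Gadd45a, Gadd45b and Gadd45g. They were listed by symbol and not by a threshold on measured values, although earlier results of these data were known. Their levels were taken in 6 classes of mouse bone marrow cells, which held 2136 of the 3567 cells kept.

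The libraries came from a study of the Id1 and Id3 genes in bone marrow vessels. Lineage-negative cells with CD31, VE-cadherin and endomucin on their surface were sorted into a Sca-1-positive gate, labelled H vessel cells, and a Sca-1-negative gate, labelled sinusoidal cells, and each gate gave 1 control and 1 knockout library. The control mice carried CDH5-CreER with the genotype ID1+/+ ID3+/-, so they lacked 1 copy of Id3 although the titles call them WT, and the knockout mice carried CDH5-CreER with ID1-/- ID3-/-. Mice were given tamoxifen on 5 days in a row to delete Id1, through a Cre that the Cdh5 promoter drives in endothelial cells. The sources used here give no age, sex or number of animals per library.

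The cells went against their labels. Only 1 kept cell had UMIs (unique molecular identifiers, each counted as 1 transcript molecule) from at least 2 of 6 endothelial genes, while 95.6% had UMIs from at least 2 of 8 blood genes. The cells are therefore called by their blood cell markers. Id1 stood at 4.08 and 2.99 CPM (counts per 1000000 UMIs of the same cells) in the control and knockout libraries of the Sca-1-positive gate, and at 26.1 and 26.3 CPM in those of the Sca-1-negative gate. Id3 was higher in the libraries labelled knockout, at 84.9 against 33.0 CPM and 84.8 against 54.7 CPM. The sources used here do not say which part of either locus was deleted, so UMIs from outside that part cannot be told apart from UMIs of an intact gene, nor from exchanged labels, under which every ratio between labels would turn round. The words labelled knockout and labelled control are used throughout for this reason.

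Cyclin-dependent kinases push cells from rest through the division cycle. CIP/KIP proteins (p21, encoded by Cdkn1a, and p27, encoded by Cdkn1b) bind cyclin-kinase complexes, and INK4 proteins (p18, encoded by Cdkn2c, and p19, encoded by Cdkn2d) bind the kinases Cdk4 and Cdk6 and keep the D cyclins off them. Btg1 and Btg2 belong to the BTG/TOB family, whose proteins bind the CCR4-NOT deadenylase and speed the decay of messenger RNA. Gadd45 proteins are small stress sensors that bind Map3k4, Pcna and Cdk1. In blood stem cells some of these genes are known for their part in quiescence, and E proteins, which Id proteins hold in check, are known to activate Cdkn1a.

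The promoters of 4 genes that several of the comparisons return to are shown first, since promoters carry the elements through which such genes are usually switched. The bases come from RefSeq for GRCm38.p6 and are those upstream of the start in RefSeq and in GENCODE M21. Capitals mark CCAAT boxes (CCAAT, or ATTGG where the box lies on the opposite strand), the cAMP response element TGACGTCA and TATAAA. The regions are Cdkn1a chr17:29090729-29090975 on the plus strand, Btg1 chr10:96616751-96617000 on the plus strand, Btg2 chr1:134079156-134079405 on the minus strand, and Gadd45b chr10:80929841-80930072 on the plus strand.
Cdkn1a: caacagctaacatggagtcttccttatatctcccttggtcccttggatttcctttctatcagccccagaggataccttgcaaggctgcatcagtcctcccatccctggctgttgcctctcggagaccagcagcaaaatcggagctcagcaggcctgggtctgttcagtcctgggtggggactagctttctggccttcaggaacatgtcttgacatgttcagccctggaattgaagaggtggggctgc
Btg1: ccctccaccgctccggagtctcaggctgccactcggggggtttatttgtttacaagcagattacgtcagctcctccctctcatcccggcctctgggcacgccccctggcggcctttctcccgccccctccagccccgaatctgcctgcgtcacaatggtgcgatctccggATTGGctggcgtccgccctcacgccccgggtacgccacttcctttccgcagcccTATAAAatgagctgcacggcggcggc
Btg2: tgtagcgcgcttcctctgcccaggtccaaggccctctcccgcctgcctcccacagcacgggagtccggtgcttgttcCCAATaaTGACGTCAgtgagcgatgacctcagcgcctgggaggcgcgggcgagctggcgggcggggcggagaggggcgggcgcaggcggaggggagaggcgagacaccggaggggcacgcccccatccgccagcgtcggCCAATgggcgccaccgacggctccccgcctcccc
Gadd45b: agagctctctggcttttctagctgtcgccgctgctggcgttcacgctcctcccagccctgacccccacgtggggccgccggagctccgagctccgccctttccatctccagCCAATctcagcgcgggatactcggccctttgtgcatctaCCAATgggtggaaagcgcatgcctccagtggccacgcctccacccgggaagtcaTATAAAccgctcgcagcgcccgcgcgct

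The following motifs were searched on both strands of all 32851 promoter windows of 250 bases before to 50 bases after a start. Btg2 held TGACGTCA, found in 1.79% of windows, 166 bases before the start. It also held CCAAT boxes 173 and 34 bases before the start, the first of them beside TGACGTCA. At least 1 CCAAT box was found in 37.4% of windows. Gadd45b held 2 CCAAT boxes and TATAAA, found in 13.6%, and Btg1 held a CCAAT box and TATAAA. Cdkn1a had 2 windows, and the one printed is that nearest to the gene start in GENCODE. It held none of the capitalised motifs. The second window, which is not printed, held CAGGTG 187 bases before its own start. Which of these starts the cells used was not tested, so the printed bases may not be the promoter in use. No member window held the AP-1 letters TGANTCA (7.81% of windows), the CArG box (1.63%), the E2F letters TTTCCCGC (1.07%) or TTTGGCGC (0.514%), or the CHR letters TTTGAA (17.9%) in the window nearest to its gene. The E-box CAGGTG (20.2%) was likewise in none of these nearest windows, and the general form CANNTG, which includes it, was in 72.3% of windows and in those of Cdkn1a, Gadd45a, Gadd45b and Gadd45g. These matches describe letters and not bound sites.

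Totals ranged from 3234772 to 11065352 UMIs per library, and median UMIs per kept cell from 5597 to 15428. The Sca-1-positive libraries held 806 (labelled control) and 1857 (labelled knockout) kept cells, the Sca-1-negative libraries 351 and 553. Between libraries 4 barcodes were shared. Each group had 1 library, so no test was possible; values are CPM of the summed UMIs of a class with exact Poisson 95% intervals, ratios carry exact conditional 95% intervals, and both cover counting error only. A gene was counted as apart at 1.5-fold or more, among genes with at least 20 UMIs over both sums.

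In the Sca-1-positive gate the classes were Procr-positive stem-like cells (269 labelled control and 510 labelled knockout cells), Flt3-positive multipotent progenitor-like cells (217 and 361), cycling progenitor-like cells (43 and 114) and plasma cell-like cells (109 and 167). The Sca-1-negative gate gave early (65 and 203) and late (26 and 52) granulocyte precursor-like cells. Procr was 190 and 169 CPM in stem-like against 139 and 117 CPM in Flt3-positive cells, the Flt3 gene 8.86 and 18.8 against 120 and 145 CPM, and the 20 G2/M genes summed to 5954 and 4957 CPM in cycling cells against 43.7 to 91.4 CPM in stem-like and Flt3-positive cells. Jchain reached 191759 and 123088 CPM in plasma cells, and Camp 44246 and 29783 CPM in late against 462 and 868 CPM in early granulocyte precursors. Jchain was also counted at 415 to 479 CPM in the 3 progenitor classes; the part of free RNA in that was not tested.

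Cdkn1a, encoded on chromosome 17 (GENCODE M21, GRCm38), was higher in the 3 progenitor classes than in the other 3. In stem-like cells it stood at 42.5 CPM (33.3 to 53.6) in the labelled control and 72.7 CPM (63.4 to 83.0) in the labelled knockout library. In Flt3-positive cells it was 68.0 and 75.9 CPM and in cycling cells 75.4 and 57.5 CPM. Plasma cells (7.5 and 18.8 CPM, 6 and 25 UMIs), early granulocyte precursors (3.39 and 8.93 CPM) and late ones (6.91 and 2.69 CPM, 2 UMIs each) all lay below every progenitor class value. Not all stem-like cells shared the class level. Cluster 2, a part of that class described below, had 20 and 12.7 CPM, the latter below the plasma value of the same library. Plasma cells and granulocyte precursors gave at most 32 UMIs in a library. Within the labelled control library the stem-like interval lay below that of Flt3-positive cells, while Flt3-positive and cycling cells overlapped. The gene overlaps AC167363.2 on the opposite strand, and the sources used here do not say whether counting used strand.

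Cdkn1b was at or below 27.6 CPM in every class. Its levels were 16.5 and 19.2 CPM in stem-like, 22.9 and 15.9 in Flt3-positive, 24.1 and 27.6 in cycling and 17.5 and 18.1 in plasma cells. All of these intervals overlapped within a library. Early granulocyte precursors had 10.2 and 3.91 CPM from 12 and 14 UMIs, and late ones 13.8 and 6.73 CPM from 4 and 5 UMIs. Levels were higher in some clusters outside the classes. Cluster 1, a low-UMI cluster with stem cell markers described below, had 36.8 CPM (19.6 to 63) in the labelled control library. In the labelled knockout library it had 63 CPM (51 to 76.9). A monocyte-like cluster of 58 cells had 82 CPM (43.6 to 140) from 13 UMIs over all libraries.

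Cdkn2c had its highest level in cycling cells, at 128 CPM (102 to 160) and 106 CPM (88.9 to 125) in the labelled control and labelled knockout libraries. Late granulocyte precursors followed with 58.8 and 53.8 CPM, and early ones had 35.6 and 36.6 CPM, with overlapping intervals. Plasma cells had 28.7 and 37.6 CPM, Flt3-positive cells 23.5 and 23.4 and stem-like cells 23.0 and 15.5. Cycling cells stood apart from every other class of their own gate in both libraries.

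Cdkn2d shared the high cycling level of its relative and was lowest in plasma cells. It was 183 and 152 CPM in cycling cells, 145 and 126 in late granulocyte precursors, 82.1 and 81.7 in stem-like, 84.5 and 79.4 in Flt3-positive, 46.7 and 34.9 in early granulocyte precursors and 21.2 and 23.3 in plasma cells. The cycling intervals (151 to 220 and 131 to 175) overlapped those of late granulocyte precursors (105 to 196 and 102 to 155). Stem-like and Flt3-positive cells did not differ beyond their intervals in either library. The order of the other classes was the same in both labels.

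Among the 4 classes of the Sca-1-positive gate Btg1 was highest in the progenitors that were not cycling, with 214 and 215 CPM in stem-like and 220 and 268 CPM in Flt3-positive cells. Cycling cells had 130 and 145 CPM, early granulocyte precursors 106 and 94.3, late ones 207 and 94.2, and plasma cells 46.2 and 115. The plasma and late granulocyte values differed between libraries, while the others lay within 1.22-fold of each other. The files also list the pseudogenes Btg1-ps1 and Btg1-ps2, so Btg1 reads may have been split.

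Btg2 was highest in plasma cells, at 400 CPM (357 to 446) and 417 CPM (383 to 453). Stem-like cells had 187 and 265 CPM, Flt3-positive cells 149 and 233, and cycling cells 103 and 121. Granulocyte precursors had the lowest levels, 22.9 and 25.7 CPM early and 44.9 and 52.5 CPM late. The same order of 6 classes was found in both labels, although several intervals of neighbours overlapped: stem-like and Flt3-positive in both libraries, and Flt3-positive and cycling and the early and late classes in the labelled control library.

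The Gadd45 genes differed in the classes where they were highest. Gadd45a was 100 and 37.7 CPM in late granulocyte precursors, 17.0 and 36.0 in early ones, 33.7 and 38.0 in Flt3-positive, 23.6 and 24.5 in stem-like, 19.2 and 18.4 in cycling and 11.2 and 7.53 in plasma cells. It overlaps E230016M11Rik on the opposite strand. Gadd45b was highest in plasma cells, 85.0 and 91.8 CPM, and had 50.1 and 32.1 CPM in early and 17.3 and 44.4 CPM in late granulocyte precursors. Stem-like cells had 27.8 and 29.1 CPM of Gadd45b, Flt3-positive cells 21.0 and 18.5, and cycling cells 12.8 and 16.9. Gadd45g was at or below 18.8 CPM in every class of either library except the labelled control late granulocyte precursors, where 20 UMIs in 26 cells gave 69.1 CPM (42.2 to 107) against 9.42 CPM from 7 UMIs in the labelled knockout library.

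**Figure D1:**
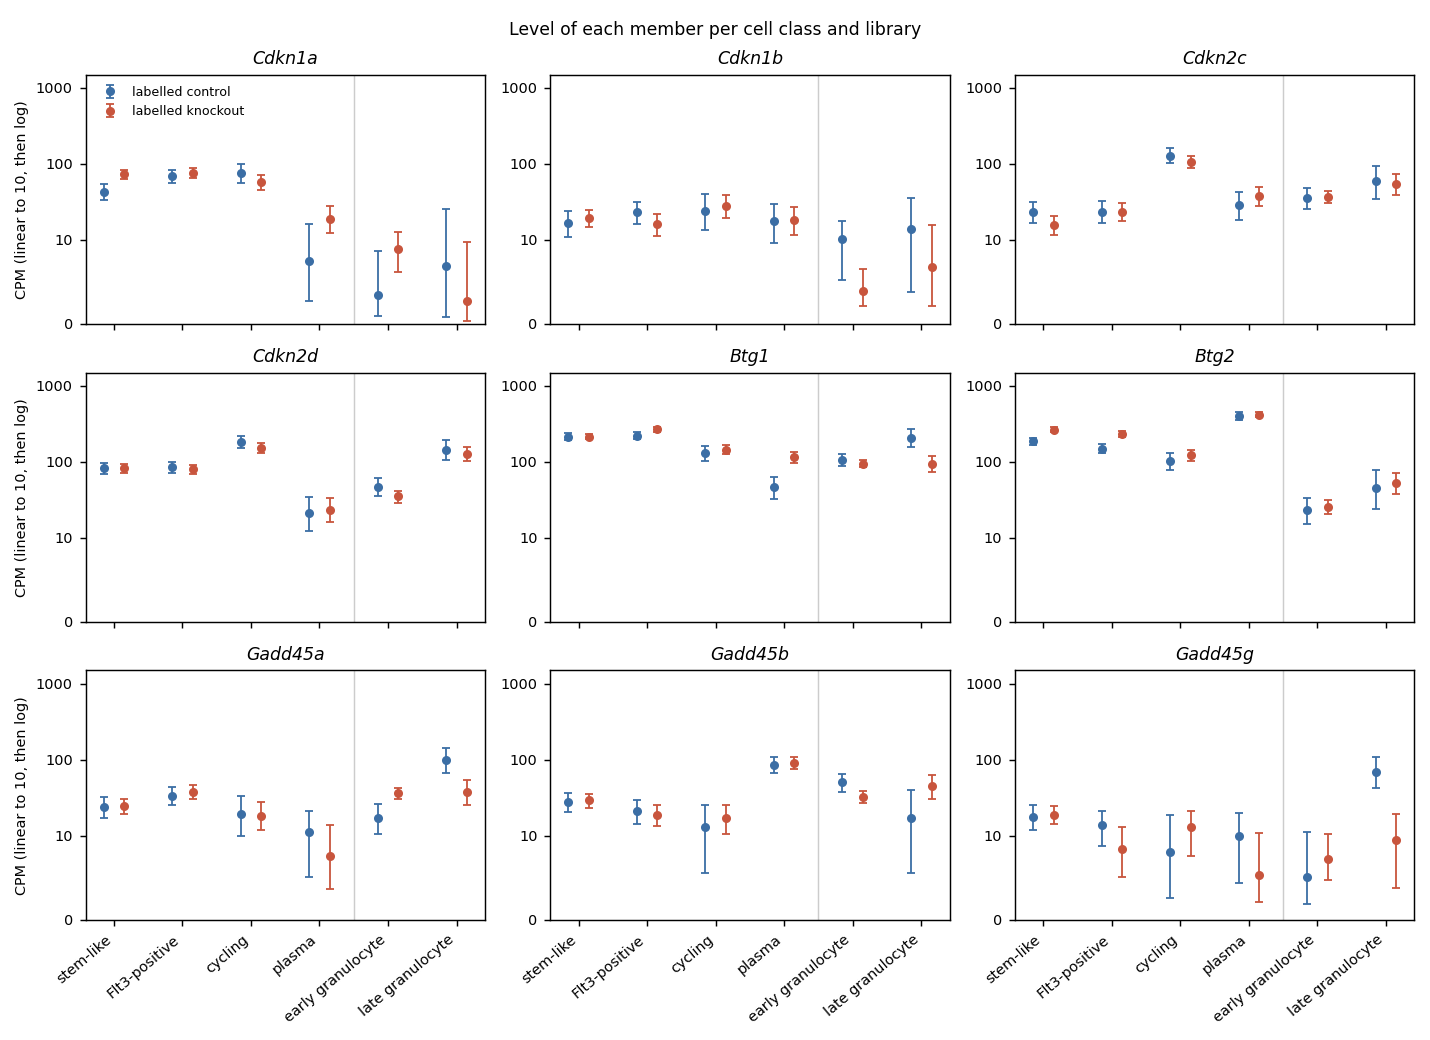
CPM of each of the 9 genes (vertical axis, linear to 10 and logarithmic above) in the 6 cell classes, with the labelled control library in blue and the labelled knockout library in red; bars are exact Poisson 95% intervals and the grey line separates the gates. Cdkn2c peaks in cycling cells and Btg2 and Gadd45b in plasma cells, and Cdkn1a is at or below 18.8 CPM outside the progenitor classes. Cdkn2d is high in both cycling cells and late granulocyte precursors, with overlapping intervals.

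Stem-like cells were compared with Flt3-positive cells as the class with fewer S phase transcripts. None of the 9 genes was apart by 1.5-fold in the same direction in both libraries, against 6.35% of 9302 genes. Cdkn1a was lower in stem-like cells in the labelled control library (ratio 0.626, 0.458 to 0.852) and level in the labelled knockout library (0.958, 0.781 to 1.18). Gadd45g was 1.27-fold and 2.25-fold the Flt3-positive level (0.707 to 2.31 and 1.32 to 4.0), and Gadd45b 1.32-fold and 1.57-fold. Gadd45a was lower in both (0.702 and 0.645), but only the second passed 1.5-fold.

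The relative Cdkn1c, which encodes the third CIP/KIP inhibitor, p57, did separate these classes. It stood at 109 against 48.9 CPM in the labelled control (2.22-fold, 1.69 to 2.94) and 107 against 52.1 CPM in the labelled knockout library (2.06-fold, 1.66 to 2.56). Of the G1 cyclins, kinases and pocket proteins, 3 of 12 and 4 of 13 measured were lower in stem-like cells and none higher. Among them Cdk6 was 0.238-fold and 0.359-fold, and E2f1, a transcription factor of S phase entry, 0.31-fold and 0.337-fold the Flt3-positive level. Of the S phase genes, 14 of 16 measured were lower in stem-like cells in the labelled control and 15 of 17 in the labelled knockout library, with medians of -0.98 and -1.3 on the log2 scale against -0.051 and -0.05 over all genes.

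Cycling cells differed from Flt3-positive cells in 4 of the 9 genes, the same way in both libraries, against 14.3% of 8443 genes. Both INK4 genes were higher: Cdkn2c 5.46-fold (3.65 to 8.29) and 4.52-fold (3.27 to 6.33), and Cdkn2d 2.16-fold (1.67 to 2.8) and 1.91-fold (1.55 to 2.35). Btg1 was lower, at 0.591 (0.458 to 0.755) and 0.541 (0.457 to 0.638), and so was Gadd45a, at 0.571 (0.278 to 1.08) and 0.485 (0.295 to 0.77), though its first interval included 1 and that ratio became 1.04 at Leiden resolution 2, a finer clustering. Btg2 was also lower, at 0.69 (0.515 to 0.914) and 0.52 (0.433 to 0.622), but short of 1.5-fold in the labelled control library. Cdkn1a did not follow: its ratios were 1.11 (0.769 to 1.58) and 0.758 (0.57 to 0.999). Cdkn1b was 1.05 (0.535 to 1.97) in the labelled control and 1.74 (1.06 to 2.84) in the labelled knockout library.

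Around the INK4 genes, the kinase Cdk6 was 1.82-fold and 1.85-fold higher in cycling cells, and Cks1b, a small subunit of cyclin-kinase complexes, 7.62-fold and 6.66-fold. Of the 15 G1 cyclins, kinases and pocket proteins, 6 of 11 measured were higher in the labelled control and 6 of 14 in the labelled knockout library, and 2 were lower in each. Those were the D cyclins Ccnd1 and Ccnd2: Ccnd1 was 0.123-fold and 0.104-fold, and Ccnd2 0.263-fold and 0.444-fold. Cdkn3, a phosphatase that acts on Cdk2 and Cdk1, stood at 144 and 116 CPM against 0.635 and 0.441 CPM from 1 UMI each. The BTG/TOB relative Tob1 was lower, at 0.534-fold and 0.514-fold. Immediate-early genes, which handling also raises, were lower in cycling cells for 7 of 12 and 7 of 13 measured, and their sum was 2227 and 2436 CPM against 4080 and 4877 CPM. Their part in the lower Btg1 and Btg2 levels was not tested. Median UMIs per cell were higher in cycling cells (14824 and 11851) than in Flt3-positive cells (7020 and 5919).

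Plasma cells, in which Jchain, a chain of secreted antibodies, alone held 191759 and 123088 CPM, differed from Flt3-positive cells for most genes: 54.1% of 8299 genes were apart in both libraries, mostly lower, and the median over all genes was -0.73 and -0.57 on the log2 scale. Against that shift, 6 of the 9 members were apart. Btg2 was 2.69-fold (2.26 to 3.2) and 1.79-fold (1.59 to 2.02) higher and Gadd45b 4.05-fold (2.64 to 6.34) and 4.95-fold (3.46 to 7.21). Cdkn1a, Cdkn2d, Btg1 and Gadd45a were lower in plasma cells. The ratios were 0.11 and 0.248 for Cdkn1a, 0.251 and 0.294 for Cdkn2d, 0.21 and 0.43 for Btg1, and 0.334 and 0.198 for Gadd45a. Cdkn1b (0.765 and 1.14), Cdkn2c (1.22 and 1.61) and Gadd45g (0.715 and 0.628) were not apart in both.

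The partner list was lower in plasma cells in 7 and 8 of 12 genes and higher in 0, and the G1 list was lower in 8 of 10 and 9 of 14 and higher in 0 and 2, in the labelled control and labelled knockout libraries. Over all genes tested, 4624 of 8352 and 4691 of 9461 were lower, and 1099 and 1424 higher. Genes of the p53 and quiescence-linked lists went both ways. Trp53inp1, a p53 target, was 21.5-fold and 19.2-fold higher, and Klf2, a zinc finger factor linked to quiescence, 4.85-fold and 2.85-fold. Cdkn1c was 0.128-fold and 0.188-fold and Cdk6 0.0291-fold and 0.0599-fold the Flt3-positive level. Immediate-early genes were higher in 6 of 12 and 10 of 14 measured, with Jun at 4.98-fold and 5.52-fold and Fosb at 11.6-fold and 17.5-fold, and they summed to 9096 and 13797 CPM. Their part in the higher Btg2 and Gadd45b levels was not tested.

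Granulocyte precursors are known to stop dividing as they mature. Late precursors differed from early ones in 2 of 7 measured members the same way in both libraries, against 29.0% of 5677 genes, and in 4 when the largest genes were left out of the CPM total. Cdkn2d was 3.11-fold (2.03 to 4.73) and 3.62-fold (2.74 to 4.77) higher and Btg2 1.96-fold (0.929 to 3.93) and 2.04-fold (1.37 to 3.0). Cdkn2c was higher by 1.65-fold and 1.47-fold. The Gadd45 genes and Btg1 did not repeat: Gadd45a was 5.91-fold and 1.05-fold, Gadd45g 13.6-fold and 1.3-fold, Gadd45b 0.345-fold and 1.38-fold, and Btg1 1.96-fold and 0.998-fold.

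Over all genes, 23% were at least 1.5-fold lower in late than in early precursors in both libraries, and 6.02% higher. Both kinases that INK4 proteins bind were among the genes lower in late precursors. Cdk4 was 0.255-fold and 0.455-fold, Cdk6 0.197-fold and 0.545-fold and Ccnd2 0.126-fold and 0.298-fold the early level, while Ccnd3 was 3.9-fold and 3.83-fold higher. Late precursors still carried G2/M transcripts, which summed to 1227 and 1372 CPM against 1059 and 1132 CPM in early ones. Cdkn3 was 2.0-fold and 3.4-fold higher in late precursors.

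**Figure D2:**
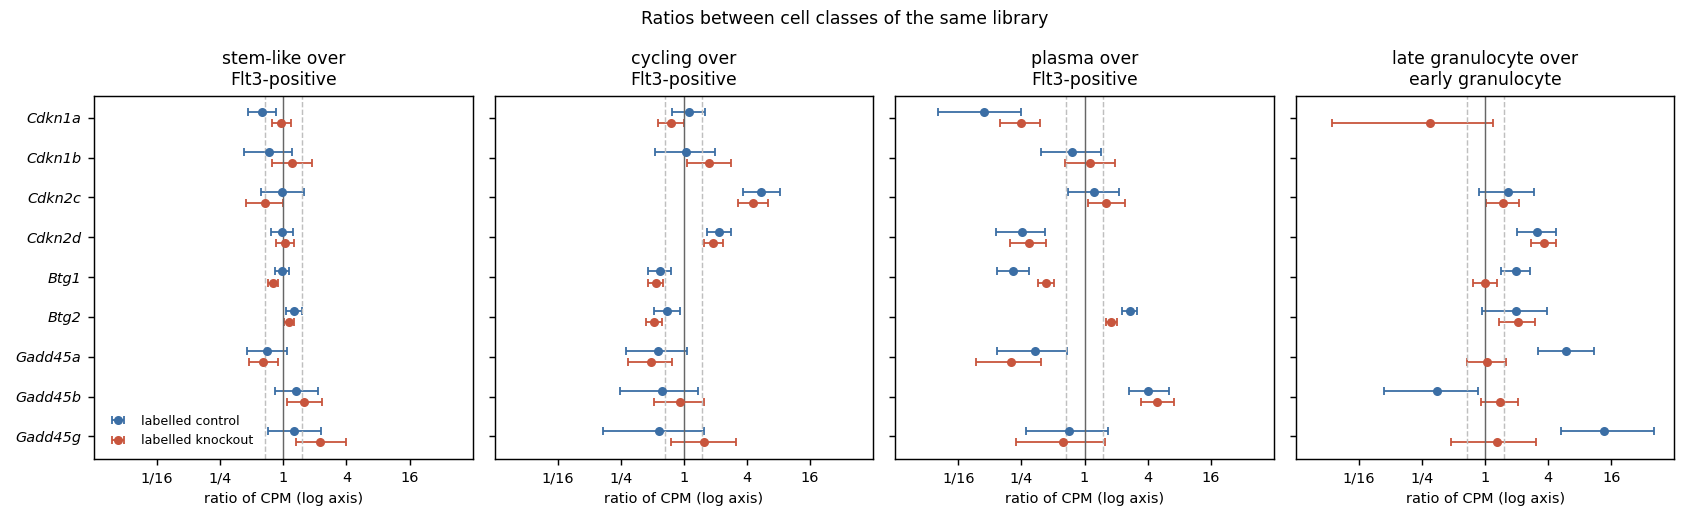
Ratio of CPM between 2 cell classes of the same library (horizontal axis, logarithmic) for each gene with at least 20 UMIs over both sums, with exact 95% intervals, the labelled control in blue, the labelled knockout in red and dashed lines at 1.5-fold. Cdkn2c and Cdkn2d lie right of the dashed line in both libraries for cycling cells, and Btg2 and Gadd45b do so for plasma cells.

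Members were also compared between single cells of a class that did or did not carry G2/M transcripts (at least 2 of the 20 genes against none, after each cell was thinned to 2000 UMIs). Stem-like and Flt3-positive cells had only 0 to 7 cells with such transcripts, too few to compare. Early granulocyte precursors had 28 cells with and 21 without in the labelled control library and 80 and 65 in the labelled knockout library, and 16 and 58 lay at the threshold with 1 gene. None of 5 measured members was apart in the same direction in both, against 3.34% of 4497 genes. Cdkn2c was 3.86-fold (1.33 to 15.3) and 1.38-fold (0.898 to 2.16), Cdkn2d 0.824-fold and 1.81-fold (1.13 to 3.02), and Gadd45a 0.618-fold and 1.87-fold (1.14 to 3.18) in cells with G2/M transcripts.

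Labelled knockout was then compared with labelled control within each class. In stem-like cells 1 of 9 members was apart, against 10.5% of 10048 genes. Cdkn1a was 1.71-fold higher in the labelled knockout library (1.3 to 2.26), and over 14 alternative treatments of the data this ratio ran from 1.29 (classes from single marker UMIs) to 4.5 (cells with Xist UMIs alone) and was at least 1.5 in 10. UMIs of Xist and of Y-linked genes were both found in these libraries, and of 12 label ratios recomputed in cells with Xist UMIs alone 7 moved beyond their interval. Btg2 was 1.42-fold higher (1.24 to 1.62), with alternatives from 1.38 to 2.03, the latter also in cells with Xist UMIs alone. Its ratio was at least 1.5 in 10 of the 14 alternatives. Cdkn2c was 0.674-fold (0.432 to 1.06). Cdkn1b (1.16), Cdkn2d (0.994), Btg1 (1.0), Gadd45a (1.04), Gadd45b (1.05) and Gadd45g (1.06) were close to level, and the widest of their intervals was 0.726 to 1.89.

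The stem-like class joined 3 clusters, and the Cdkn1a and Btg2 differences were not shared by all of them. Cluster 2, led by the stem cell genes Pdzk1ip1, Mllt3, Procr and Hlf, had 20 CPM of Cdkn1a in the labelled control and 12.7 in the labelled knockout library (ratio 0.637, 0.299 to 1.34) and 109 and 98.4 CPM of Btg2 (0.905, 0.686 to 1.2). Cluster 3, led by the immediate-early receptors Nr4a1 and Nr4a2, had 64.6 and 116 CPM of Cdkn1a (1.79, 1.25 to 2.62) and 255 and 396 CPM of Btg2 (1.55, 1.3 to 1.87). Cluster 10, led by interferon-induced genes such as Ifit1 and Oasl2, had 78.9 and 92.2 CPM of Cdkn1a (1.17) and 335 and 268 CPM of Btg2 (0.8). Cluster 3 also made up more of the class in the labelled knockout library, 231 of 510 cells against 89 of 269.

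Immediate-early genes moved with these values. In stem-like cells 6 of 13 were apart, all higher in the labelled knockout library, with a median of 0.49 on the log2 scale against -0.041 over all genes. Jund was 2.17-fold, Nr4a1 1.81-fold, Fosl2 1.78-fold, Jun 1.71-fold and Ier5 1.6-fold higher. Of the quiescence-linked factors, 4 of 10 were higher, Klf2 by 1.78-fold, Hes1 by 1.57-fold and Klf4 by 1.54-fold among them. Of 10 measured genes on the p53 list, to which Cdkn1a is also known to belong as a target, none was higher and Trp53inp1 was lower (0.512-fold). The part of immediate-early transcription or of p53 in the Cdkn1a and Btg2 ratios was not tested.

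Across the 12 sums of 6 progenitor clusters and 2 libraries of the Sca-1-positive gate, Btg2 followed the summed immediate-early level closely, with a Pearson r of 0.96 on log values. Btg2 ran from 98.4 CPM in cluster 2 to 586 CPM in cluster 6, both in the labelled knockout library, a 5.95-fold span. Cdkn1a spanned 11.6-fold, from 12.7 to 148 CPM in the same sums, with an r of 0.75. The r was 0.62 for Btg1 and between -0.13 and 0.38 for the other 6 genes, and Cdkn2d spanned 1.72-fold only. These 12 sums share libraries and clusters and are a description. Only the members were left out of the variable genes used for clustering, so immediate-early genes may have helped to form the clusters.

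**Figure D3:**
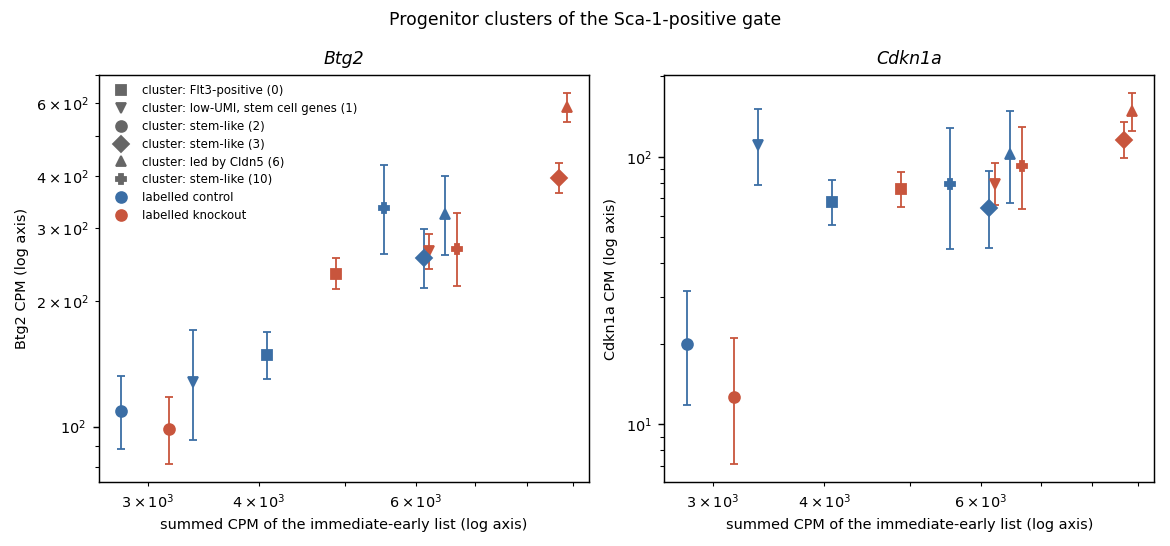
CPM of Btg2 (left) and Cdkn1a (right) against the summed CPM of the immediate-early list (both axes logarithmic) in 6 progenitor clusters of the labelled control (blue) and labelled knockout (red) Sca-1-positive libraries, with exact Poisson 95% intervals. Btg2 climbs from 98.4 to 586 CPM along the axis, while cluster 1 of the labelled control library has 111 CPM of Cdkn1a at 3375 CPM of immediate-early transcripts.

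Clusters 1 and 6 also carried stem cell markers but were kept out of the stem-like class by rules set after the data were seen. The stem-like levels and the comparison with Flt3-positive cells above therefore leave both out. Cluster 6 had all 10 of the fixed stem-like markers raised, against 7, 6 and 6 of them in clusters 2, 3 and 10 of the class. Cluster 1 (68 labelled control and 419 labelled knockout cells) had 53% of the median UMIs of its gate, and cluster 6 (41 and 167 cells) was led by Cldn5, a gene of endothelial tight junctions, and Plk2. In cluster 1, 4 of 9 members were apart, all higher in the labelled knockout library, against 24.9% of 7976 genes. Btg2 was the only member whose interval left out 1, at 128 and 264 CPM (2.07-fold, 1.52 to 2.88). In cluster 6, 2 of 8 were apart, against 23.7% of 6807 genes: Btg2, at 324 and 586 CPM (1.81-fold, 1.44 to 2.3), and Gadd45b, with 1 and 41 UMIs (10.4-fold, 1.77 to 423). Immediate-early genes were higher in 10 of 13 in cluster 1 and 5 of 13 in cluster 6. Cdkn1a was 111 and 79.4 CPM in cluster 1 and 102 and 148 CPM in cluster 6, with ratios of 0.718 and 1.45 whose intervals included 1.

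In Flt3-positive cells 2 of 9 members were apart, against 12.3% of 9643 genes. Btg2 was 1.57-fold higher in the labelled knockout library (1.34 to 1.84), and its alternatives ran from 1.26 (classes from single marker UMIs) to 3.11 (cells with Xist UMIs alone), with 9 of 11 at or above 1.5. Gadd45g was 0.6-fold (0.307 to 1.16) on 22 and 19 UMIs. Btg1 was 1.22-fold (1.07 to 1.39), but 0.844-fold in cells with Xist UMIs alone. Cdkn1b was 0.695-fold (0.425 to 1.13) and Cdkn1a 1.12-fold (0.872 to 1.44). The relative Btg3 was 3.03-fold higher (1.55 to 6.47), at 21.2 against 6.99 CPM. Klf2 (1.76-fold) and Jund (1.62-fold) were higher here too, and 2 of 13 immediate-early genes were apart.

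In cycling cells 1 of 9 members was apart, against 17.8% of 8070 genes, and it was Gadd45g with 5 and 17 UMIs (1.63, 0.576 to 5.64). Cdkn2c (0.825, 0.622 to 1.1) and Cdkn2d (0.831, 0.656 to 1.06) were somewhat lower in the labelled knockout library with intervals that included 1. The relative Cdkn1c was 2.46-fold higher (1.35 to 4.87), at 51.4 against 20.8 CPM. Of the G2/M genes 5 of 20 were lower, Plk1 (0.522-fold) and Kif20a (0.569-fold) among them. Pf4, a megakaryocyte gene, was 12.8 CPM in the labelled control and 104 CPM in the labelled knockout cycling cells, and the part of such cells in these ratios was not tested.

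In plasma cells 2 of 7 measured members were apart, against 22.7% of 6803 genes. Btg1 was 2.49-fold higher in the labelled knockout library (1.73 to 3.67), and at 2.11 to 3.3 over 11 alternatives. Cdkn1a was 2.51-fold (1.01 to 7.48) on 6 and 25 UMIs. Btg2, the member with the highest CPM in this class, was level (1.04, 0.907 to 1.2), as was Gadd45b (1.08, 0.797 to 1.48). The relative Btg3 was 2.65-fold higher (1.31 to 5.91).

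Several other measures differed between the plasma cells of these libraries. The list of 20 G2/M genes summed to 310 CPM in the labelled knockout against 47.5 CPM in the labelled control library. Only 8 of them were measured, and all 8 were higher in the labelled knockout library. The minimum of 20 UMIs over both sums favours genes that are high there, so this count adds nothing to the summed level. Jchain was lower, at 123088 against 191759 CPM. Immediate-early genes were higher in 5 of 13, with Atf3 at 5.42-fold and Jund at 2.25-fold. The part of any of these in the Btg1 ratio was not tested.

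In early granulocyte precursors 4 of 9 members were apart, against 17.0% of 8628 genes. Gadd45a was 2.12-fold higher in the labelled knockout library (1.32 to 3.59), while Gadd45b was 0.641-fold (0.464 to 0.893) and Cdkn1b 0.384-fold (0.165 to 0.908). Cdkn1a was 2.63-fold (0.933 to 10.2) on 4 and 32 UMIs. Among cells without G2/M transcripts alone the Gadd45a ratio was 1.1, the lowest of 10 alternatives, and the Gadd45b ratio 0.761. Cdkn2c (1.03), Cdkn2d (0.748), Btg1 (0.889) and Btg2 (1.12) had intervals that included 1.

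In late granulocyte precursors 4 of 7 measured members were apart, against 39.9% of 4183 genes. Gadd45g was 0.136-fold (0.0487 to 0.335), Gadd45a 0.376-fold (0.215 to 0.654) and Btg1 0.454-fold (0.317 to 0.652) the labelled control level. Gadd45b was 2.57-fold (0.996 to 8.43) on 5 and 33 UMIs. Cdkn2d (0.871, 0.599 to 1.28) and Cdkn2c (0.916, 0.507 to 1.72) had intervals that included 1. The relative Tob1 was 0.219-fold (0.0853 to 0.526).

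Maturity markers moved with the late class. Elane, a protease of early granules, stood at 20890 CPM in the labelled knockout against 7616 CPM in the labelled control library, and Camp, of later granules, at 29783 against 44246 CPM. S phase genes were higher in 8 of 17, and Cdk6 was 2.28-fold and Cdk4 1.91-fold higher. The class held 26 labelled control cells. Immediate-early genes were lower in 4 of 8 (median -0.71 on the log2 scale against 0.27 over all genes) and quiescence-linked factors in 3 of 4. The part of maturity or of these lists in the Btg1 and Gadd45 ratios was not tested.

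**Figure D4:**
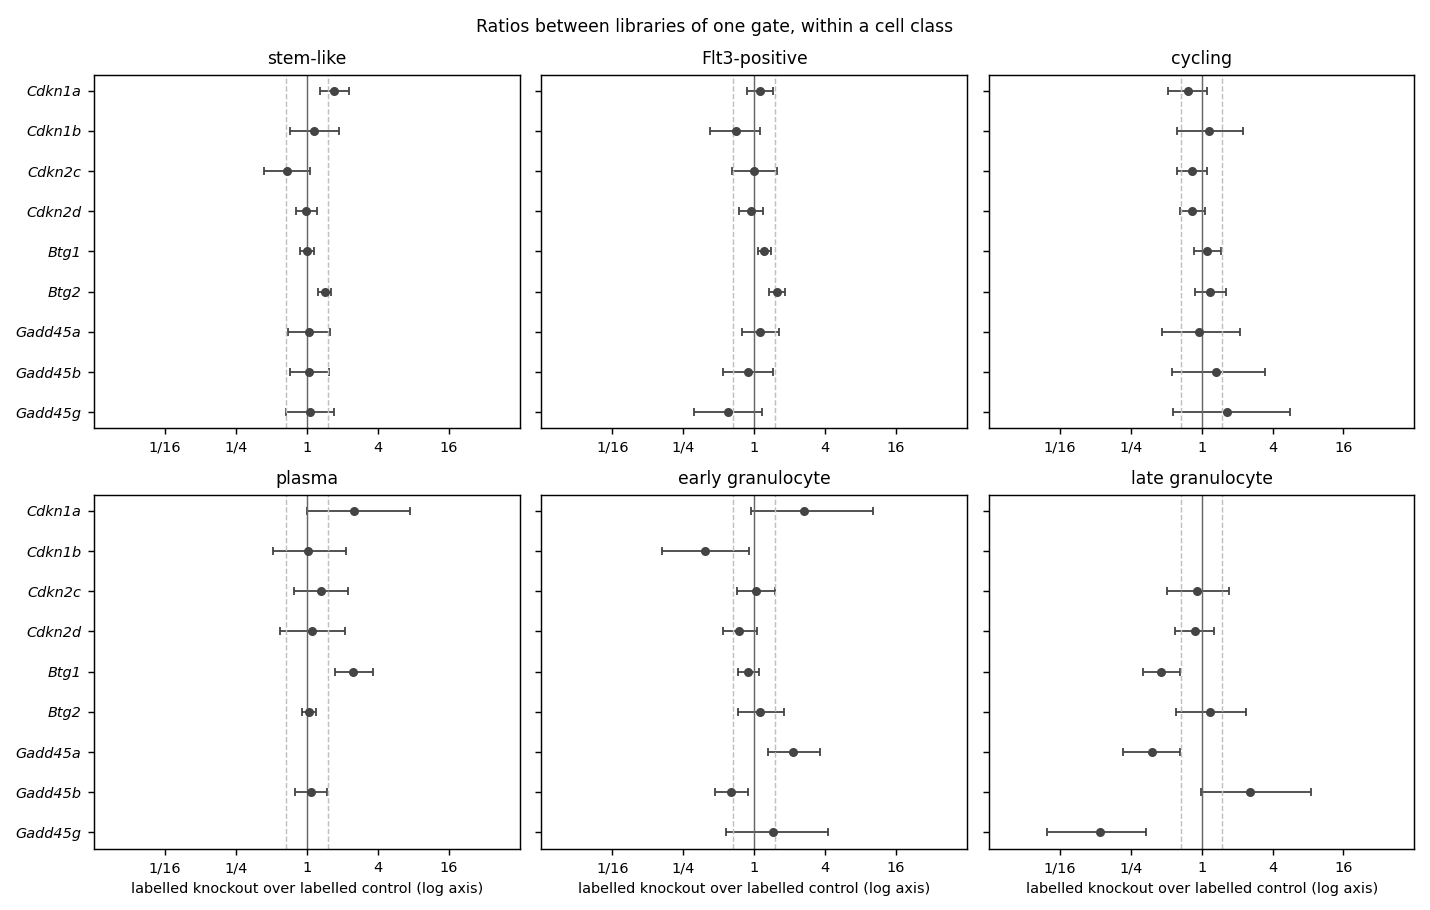
Ratio of CPM in the labelled knockout over the labelled control library of the same gate (horizontal axis, logarithmic) within each cell class, for members with at least 20 UMIs over both sums, with exact 95% intervals and dashed lines at 1.5-fold. Btg2 lies right of 1 in stem-like (1.42) and Flt3-positive (1.57) cells, Btg1 right in plasma (2.49) and left in late granulocyte (0.454) cells, and most other intervals cross 1.

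Of the closest relatives, Cdkn2a, Cdkn2b and Btg4 were rare. Cdkn2a had at most 13.5 CPM (plasma cells, labelled knockout) and Cdkn2b at most 3.75 CPM in the 6 classes, and Btg4 had no UMI in any of them. In stem-like cells Cdkn1c stood at 109 and 107 CPM, Tob1 at 52.6 and 52.2, Tob2 at 63.2 and 81.3 and Btg3 at 14.2 and 18.8 CPM.

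Outside the 6 classes, over all libraries, Btg1 was higher in several other clusters. It reached 1697 CPM in a basophil and mast cell-like cluster of 22 cells, 1611 CPM in B lymphoid-like cells, 1480 and 828 CPM in 2 T and NK-like clusters, 1275 CPM in dendritic cell-like cells and 1164 and 1349 CPM in 2 of 3 monocyte-like clusters, against 174 to 289 CPM in stem-like clusters. Btg2 was high in several of the same clusters, with 717 CPM in dendritic cell-like and 693 CPM in the smaller monocyte-like cells. Erythroid-like cells (28 cells) were low in both, at 23.8 and 17.0 CPM, and carried the highest Gadd45a level, 276 CPM. Cdkn1a was highest in a monocyte-like cluster (158 CPM) and had no UMI in the dendritic cell-like, erythroid-like and smaller T and NK-like clusters. Cdkn2c and Cdkn2d were highest in a basophil and mast cell-like cluster of 27 cells, at 157 and 251 CPM, while the cluster of 22 cells of that name had the highest Gadd45g level, 246 CPM. In the 21 labelled knockout cells of the cluster of 27, G2/M genes summed to 5027 CPM, beside 5954 and 4957 CPM in the cycling class. The part of cycling in its Cdkn2c and Cdkn2d levels was not tested.

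**Figure D5:**
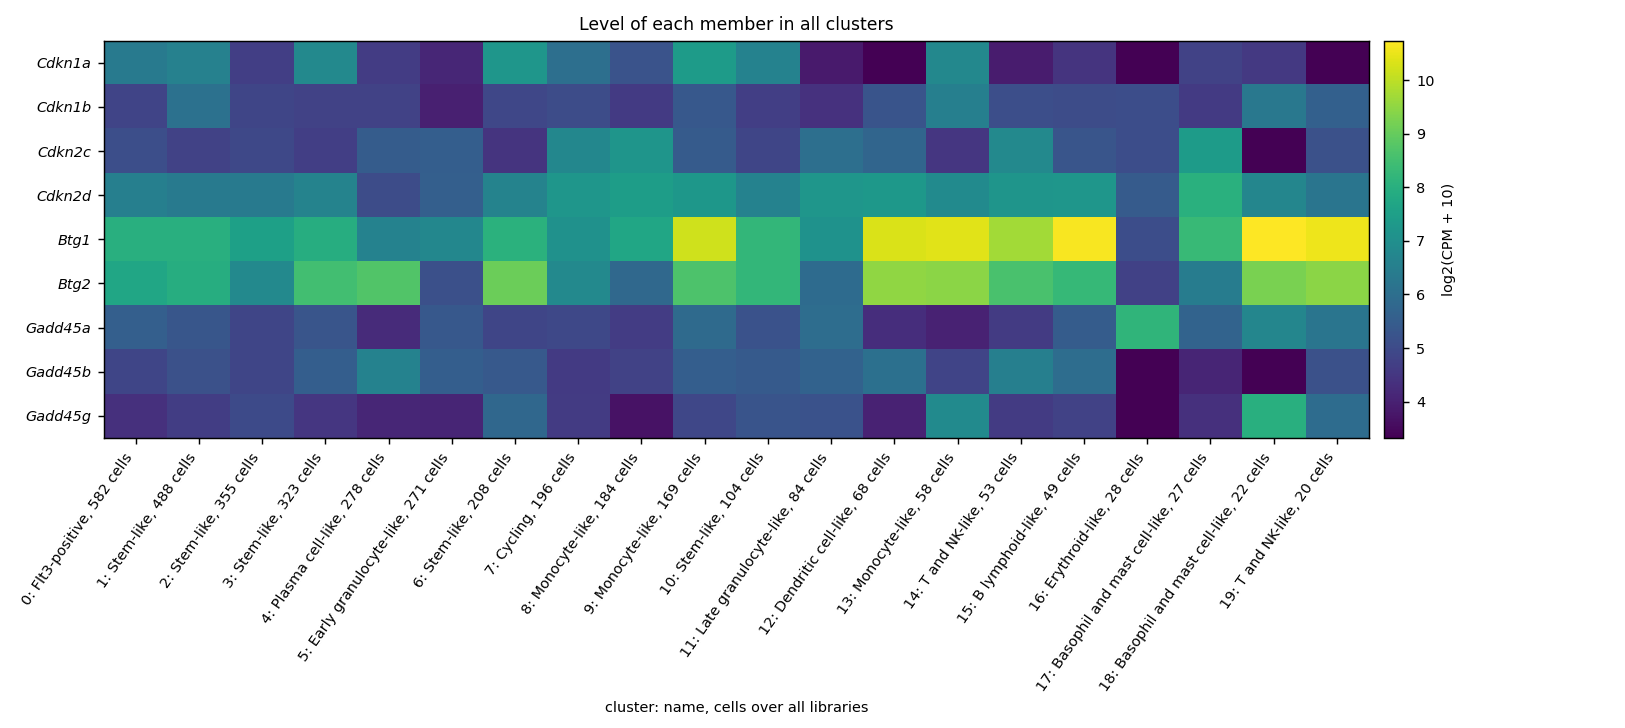
Level of each gene, as log2(CPM + 10) by colour, in all 20 clusters of kept cells over the 4 libraries, with the cluster number, name and cell count on the horizontal axis. Btg1 is brightest in a basophil and mast cell-like cluster of 22 cells (1697 CPM) and in B lymphoid-like cells (1611 CPM), and Gadd45a in erythroid-like cells.

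Genes of like pattern were ranked for each member by the Pearson r of log2(CPM + 10) over 26 class and library sums, among 5630 genes. Cdkn2c was most like the mitotic genes Nusap1 (0.90), Racgap1 (0.90) and Kif11 (0.89). Btg2 was most like Klf2 (0.92), Chmp4b (0.89) and Whsc1l1 (0.89), and Btg1 like Ptprc (0.93), which encodes CD45, Ptpn1 (0.93) and Pip4k2a (0.90). Cdkn1a was most like Ifitm3 (0.93), Gm7676 (0.89) and Nupr1 (0.88), and Cdkn2d like Clic1 (0.90), Pdcd10 (0.80) and Rcsd1 (0.78). Cdkn1b (Abcg1, 0.76), Gadd45b (Gramd3, 0.77), Gadd45a (Vps37b, 0.67) and Gadd45g (Sgk1, 0.67) had weaker best partners. The sums share libraries and cell classes, so these values describe likeness and carry no p.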

How the data were processed

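Single cells were captured with 10x Genomics Chromium and sequenced on a NextSeq 500, per the labels' protocols. Cell Ranger, Seurat and mm10 are named in the submitters' processing notes, without versions or roles, and strand use in counting is unstated in the sources here. The matrices the authors deposited hold raw UMI counts as whole numbers, per the file headers. Of 3641 barcodes, 74 were left out for having fewer than 200 genes or a mitochondrial share of 10% or more, which left 3567 cells. Cells were scaled to 10000 UMIs, and 1995 of 2000 variable genes (the 5 members among them left out), 30 components, 15 neighbours and Leiden resolution 1 gave 20 clusters (Python 3.11.15, scanpy 1.11.5, leidenalg 0.10.2, scipy 1.17.1). A cluster was named from fixed markers where at least 3 were detected in 10% of cells and 1.5-fold raised, a threshold set after the data were seen. Doublet calling marked 1, 3, 5 and 6 cells of the 4 libraries; these were kept in the main values and left out as an alternative. 3 fixed symbols had no match. UMIs were summed per class and library. Named genes were all 9 members, up to 6 genes per list and comparison that were 1.5-fold apart with an interval leaving out 1, the closest relatives, and the 3 genes of most like pattern; cluster-leading genes and maturity markers were added. The rules were tested on simulated counts. The members and gene lists were chosen with earlier results of these data known. Gene positions come from GENCODE M21 and promoters from RefSeq.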

Additional observations from a re-analysis of the deposited data

Results flagged for a closer look

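Btg1 and Gadd45a differed between libraries in opposite directions in different cell classes. Btg1 in the labelled knockout library was 2.49-fold the labelled control level in plasma cells (1.73 to 3.67) and 0.454-fold in late granulocyte precursors (0.317 to 0.652). These classes come from different gates, and the difference between them was not tested. Gadd45a was 2.12-fold in early granulocyte precursors (1.32 to 3.59) and 0.376-fold in late ones (0.215 to 0.654), both from the Sca-1-negative gate, and this difference was not tested either, since each group had 1 library.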

How the results depend on the processing

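No paired analysis was possible because each group has 1 library. Of 500 label ratios recomputed under the alternatives, 475 moved by less than their interval, 25 moved by more and none past 1.5-fold changed direction; of those under it, Btg1 in Flt3-positive cells went from 1.22 to 0.844 in cells with Xist UMIs alone; of 216 levels 201 and of 276 class ratios 255 stayed within it. Among class ratios past 1.5-fold, only Leiden resolution 2 turned any round: stem-like over Flt3-positive Cdkn2c to 1.60 and plasma over Flt3-positive Gadd45g to 1.65 in the labelled knockout, and cycling over Flt3-positive Gadd45a to 1.04 in the labelled control library. Turns of smaller class ratios were not counted. Members apart by label in stem-like and Flt3-positive cells numbered 3 and became 5 with the strict cell filter, with Leiden resolution 2 and with the Cldn5 cluster added to the stem-like class; in cycling and plasma cells 3 became 1 in cells with Y-linked UMIs alone. Stem-like over Flt3-positive cells gave 1 member in place of 0 with the mean of per-cell CPM (Gadd45a) or clustering with the members (Gadd45g). Late over early granulocyte precursors gave 4 members in place of 2 with CPM without the largest genes. The causes were not tested. The Cldn5 and low-UMI cluster additions and the thinned comparison were chosen after seeing the data. A threshold of 3 G2/M genes left too few cells, and Leiden resolution 0.5 gave no Flt3-positive class. Depth limits values under 20 UMIs, above all Cdkn1a, Cdkn1b and Gadd45g in granulocyte precursors.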

Other observations

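Monocyte-like cluster 8 of the Sca-1-negative gate held 20 labelled control and 159 labelled knockout cells and lay outside the 6 classes. Both INK4 genes were abundant there over all libraries, Cdkn2c at 135 CPM and Cdkn2d at 165 CPM, and both were lower in the labelled knockout library, at 0.544-fold (0.414 to 0.726) and 0.482-fold (0.379 to 0.618) the labelled control level. Cdkn1a was 0.314-fold (0.183 to 0.566) and Btg2 0.361-fold (0.238 to 0.564), while Btg1 was 0.782-fold (0.603 to 1.03). By the 1.5-fold rule 6 of 8 measured members were lower and 0 higher in the labelled knockout library. Over all genes tested in this cluster, 1792 of 7916 were lower and 1113 higher. Immediate-early genes summed to 2600 CPM (labelled control) and 1250 CPM (labelled knockout), and G2/M genes to 3359 and 2847 CPM. Their part in these ratios was not tested. This cluster was singled out after its values were seen.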
